A study of Homo sapiens with 30 samples.

Results

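Transcription of 10 genes of lipid droplets and fatty acid use was followed in A549, an established line from a human lung adenocarcinoma, by PRO-seq. This precision run-on assay maps engaged RNA polymerases by letting them add a labelled nucleotide, so its counts report ongoing transcription rather than the amount of finished mRNA. The set comprised CIDEC, CIDEB, PLIN2, PLIN3, PLIN4, PLIN5, ANGPTL4, PDK4, PNPLA2 and CPT1A, which are 10 of the 58780 genes in the count table. It was chosen by name around CIDEC, which had been selected on its rise after 3 h of dexamethasone against untreated cells. That contrast is therefore given as a description with no p-value for any member, and so is every comparison of CIDEC that uses the same untreated or dexamethasone libraries.

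Lipid droplets store triglyceride inside a single layer of phospholipid. Perilipins coat this surface and limit or steer lipolysis, and CIDE proteins at the contacts between droplets promote their fusion into larger ones. Adipose triglyceride lipase, encoded by PNPLA2, opens the breakdown of the stored fat, and the freed fatty acids enter mitochondria through CPT1A. PDK4 shuts off pyruvate dehydrogenase and so shifts fuel use from glucose to fatty acids, and ANGPTL4 is a secreted inhibitor of lipoprotein lipase. Glucocorticoids are known to act on fat storage and fuel choice in several tissues through the glucocorticoid receptor, and PDK4 and ANGPTL4 are established targets of that receptor.

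The samples formed 15 groups of 2 replicates. They were untreated cells, dexamethasone (Dex, a synthetic glucocorticoid, 100 nM) for 15 min or 3 h, Dex together with GSK591 or with MS023 for 3 h, each inhibitor alone for 2, 4 or 7 days, and 7 days of either inhibitor with Dex added at the end, again for 15 min or 3 h. GSK591 inhibits the arginine methyltransferase PRMT5 and MS023 the Type I arginine methyltransferases, each used at 1 µM. Untreated cells too were kept in 0.01% DMSO, like every other group. The label of the untreated group gives 15 min. This one group served every treatment time, 3 h of Dex included, so that time in culture and the days of inhibitor cannot be told apart. No label says that the replicates were separate cultures, and p-values then measure the spread between these samples, which may be technical.

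Total counts per library ran from 8441211 to 13069598, of which mitochondrial and ribosomal RNA genes took 62.4% to 84.0%, leaving 1914563 to 3508923 counts on nuclear genes. That share was 77.8% and 80.7% in the untreated libraries and 62.4% to 69.9% in all libraries kept with MS023 for 2 days or longer, and its part in the results below was not tested. Values are given as CPM, counts relative to a library size scaled by TMM, for which 1 CPM corresponded to 7.32 to 14.1 counts. Of the A549 and epithelial markers KRT8 had 1363 to 5212 counts, while EPCAM was the lowest at 9 to 87. Among the adipocyte genes ADIPOQ and FABP4 were at 0 in 26 of 30 libraries each and CIDEA in 23, whereas PLIN1 was detected in every library with 20 to 73 counts. Summed over 6 adipocyte markers the level was 20.1 to 39.5 CPM, mostly from LIPE (137 to 445 counts), against 1119 to 2162 CPM over the 9 A549 and epithelial markers. In bulk samples fewer transcribing cells and less transcription per cell cannot be told apart.

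Members differed widely in level. The levels are set per kilobase of exon although the counted feature is not given in the sources used here, so the order holds for counts over exons and could be another if introns were counted. Per kilobase of exon, PNPLA2 and ANGPTL4 led in untreated cells, with 8.72 ± 0.169 and 10.1 ± 0.348 CPM per kb (SD, n = 2). PLIN4 (1.86 ± 0.135 CPM per kb), PLIN3 (1.51 ± 0.105), CPT1A (1.19 ± 0.208), PDK4 (1.09 ± 0.188) and PLIN2 (0.954 ± 0.0509) followed, and the last 3 of these lay within or close to each other's spread. CIDEC stood at 0.189 ± 0.103 CPM per kb and PLIN5, the perilipin of oxidative tissues, at 0.0671 ± 0.0357. After GSK591 and 3 h of Dex, CIDEC had risen to 9.11 ± 0.332 CPM per kb, behind ANGPTL4 (29.8 ± 2.35) and PNPLA2 (11.7 ± 0.0515) and ahead of PDK4 (5.12 ± 0.298).

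Of the 10 members, 8 passed the filter on low counts. PLIN5 had 0 to 11 counts per library (median 2.5) and was not tested. CIDEB had 0 counts in all 30 libraries. All 3198 exonic bases of CIDEB (chromosome 14, 24305096 to 24311430, minus strand, hg38, GENCODE 29) are shared with exons of NOP9 or LTB4R2 on the opposite strand, and how the counting treated shared bases is not given in the sources used here. The 0 is therefore not read as a level of CIDEB. Smaller shares of exon lie under other genes for PLIN5 (21.7%, AC011498.4, same strand), PLIN3 (17.8%, antisense AC027319.1), PNPLA2 (10.4%, antisense AP006621.1) and PLIN4 (0.492%, HDGFL2), and whether reads there were assigned by strand is not given. CIDEC, PLIN2, PDK4 and CPT1A share no exonic base with another gene, and ANGPTL4 shares 1.

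CIDEC lies on chromosome 3 (9866711 to 9880254, minus strand), ANGPTL4 on chromosome 19 (8363289 to 8374373, plus strand) and PDK4 on chromosome 7 (95583499 to 95596491, minus strand). PLIN4 (4502180 to 4518465) and PLIN5 (4522531 to 4535224) are neighbours on the minus strand of chromosome 19 with 4065 bases between them, and PLIN3 (4838341 to 4867768) is 303116 bases from PLIN5. PLIN2 is on chromosome 9 (19108375 to 19149290, minus strand), PNPLA2 on chromosome 11 (818902 to 825573, plus strand), as is CPT1A (68754620 to 68844410, minus strand). The 3 members that rose at both Dex times are shown by the bases just upstream of a RefSeq start (GRCh38.p14), outside their own annotated exons, written 5′ to 3′ on the gene's strand. Capitals mark a match to the glucocorticoid receptor hexamer AGAACA (on either strand, TGTTCT reversed) or to the TATA box TATAAA.
CIDEC (chr3:9880255-9880503, minus strand, 249 bases): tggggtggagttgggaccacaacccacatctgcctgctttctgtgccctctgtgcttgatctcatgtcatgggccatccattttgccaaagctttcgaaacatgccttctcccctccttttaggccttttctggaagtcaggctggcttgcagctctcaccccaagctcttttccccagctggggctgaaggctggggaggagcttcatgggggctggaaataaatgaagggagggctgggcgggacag
ANGPTL4 (chr19:8363905-8364150, plus strand, 246 bases): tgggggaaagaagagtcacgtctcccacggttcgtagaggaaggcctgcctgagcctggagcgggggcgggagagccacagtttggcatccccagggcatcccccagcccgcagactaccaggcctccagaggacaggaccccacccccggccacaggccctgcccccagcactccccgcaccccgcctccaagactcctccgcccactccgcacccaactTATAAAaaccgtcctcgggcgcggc
PDK4 (chr7:95596517-95596766, minus strand, 250 bases): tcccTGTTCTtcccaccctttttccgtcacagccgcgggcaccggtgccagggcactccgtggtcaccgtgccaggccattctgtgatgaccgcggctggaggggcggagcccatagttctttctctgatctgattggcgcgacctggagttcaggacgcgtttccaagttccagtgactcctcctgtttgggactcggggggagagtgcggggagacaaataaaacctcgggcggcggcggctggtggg

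The receptor hexamer of PDK4 begins 246 bases before its start and lies on the opposite strand. The TATA box of ANGPTL4 begins 29 bases before its start, and no match lies in the window shown for CIDEC. A second RefSeq start of CIDEC has that hexamer 240 bases upstream. This match lies inside an annotated exon of CIDEC (9878942 to 9879056), whereas the stretches shown leave out the gene's own exons. The hexamer occurs in 14.8% and the TATA box in 11.5% of 35116 full RefSeq promoter windows, which run past the start and are longer than the stretches shown. The full palindrome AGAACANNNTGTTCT, found in 0.00285% of promoters, and the direct repeat bound by PPAR receptors, AGGTCANAGGTCA (0.0228%), matched in none of the 12 full member windows, which says only that these letters are absent there.

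CIDEC was transcribed at a very low level without Dex and strongly with it. Untreated libraries held 2 and 5 counts (0.222 and 0.504 CPM). After 15 min of Dex they held 37 and 39 counts (3.65 and 3.90 CPM), and after 3 h 110 and 103 counts (11.7 and 12.6 CPM). The groups did not overlap, and the log2 fold change was 3.31 (SE 0.451) at 15 min and 4.99 (SE 0.376) at 3 h, given as descriptions. Both sizes rest on few untreated counts: without the second untreated library the 15 min value became 4.01, and the 3 h value lay between 4.56 and 5.69 as libraries were left out in turn.

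**Figure D1:**
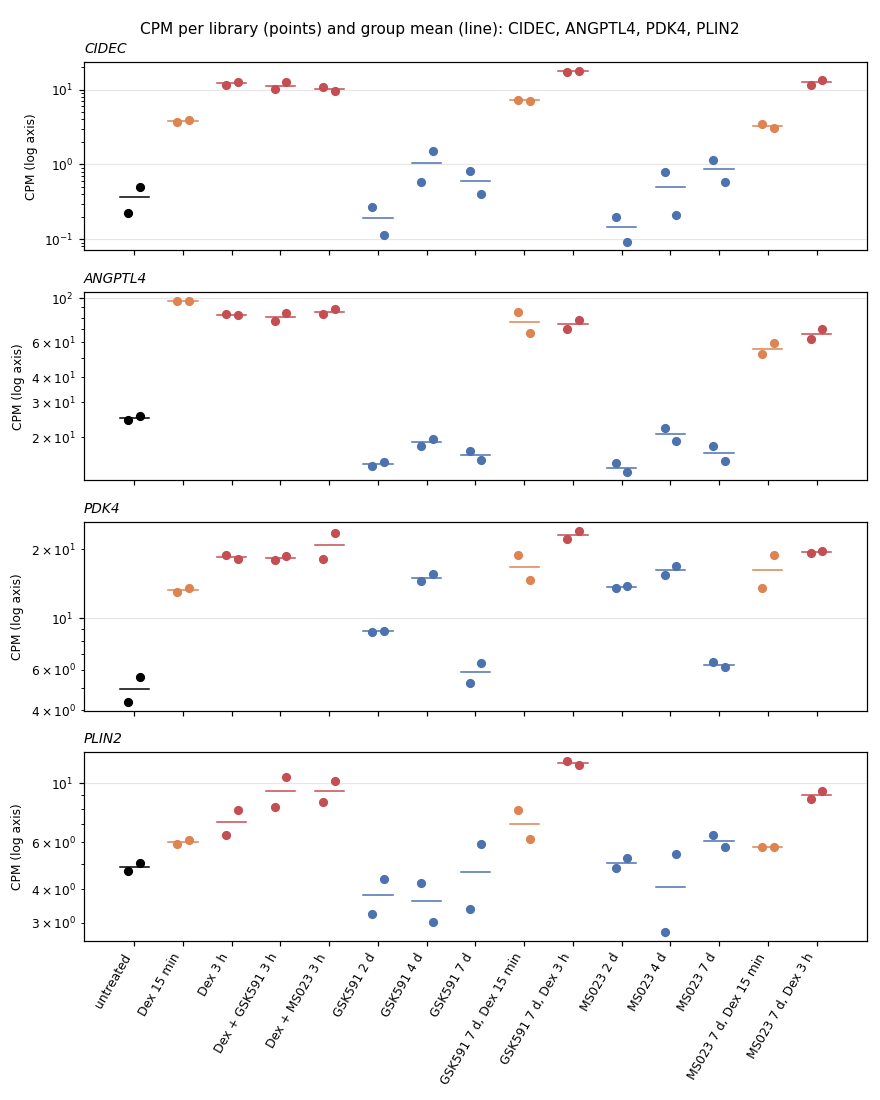
TMM-scaled CPM (vertical, log axis, own range per panel) of CIDEC, ANGPTL4, PDK4 and PLIN2 in each library (points) and group mean (line) over the 15 groups (horizontal). Every library with Dex lies above every library without it for CIDEC and ANGPTL4, whereas PDK4 is also high after 2 and 4 days of either inhibitor.

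The response of CIDEC could be tested in cells kept for 7 days with an inhibitor, whose libraries had no part in its choice. After GSK591 alone there were 7 and 3 counts (0.814 and 0.402 CPM). They rose to 54 and 73 counts (7.38 and 7.02 CPM) with 15 min of Dex and to 155 and 157 counts (17.1 and 18.0 CPM) with 3 h. CIDEC was 11.4-fold higher at 15 min (log2 fold change of 3.51 with SE 0.385, adjusted p = 4.82e-09, from the edgeR quasi-likelihood fit) and 27.7-fold higher at 3 h (4.79, SE 0.340, adjusted p = 1.04e-15, edgeR). As libraries were left out in turn the log2 values ran from 3.12 to 4.12 at 15 min and from 4.41 to 5.41 at 3 h, the highest without the first GSK591 library.

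After MS023 alone, CIDEC had 16 and 8 counts (1.13 and 0.579 CPM). With Dex these became 46 and 37 counts (3.52 and 3.08 CPM) at 15 min and 158 and 183 counts (11.6 and 13.5 CPM) at 3 h. The rise was 3.81-fold at 15 min (log2 1.93, SE 0.340, adjusted p = 0.000204, edgeR) and 14.4-fold at 3 h (log2 3.85, SE 0.285, adjusted p = 2.94e-15, edgeR). Both pretreated arms thus showed non-overlapping groups at both times. With each library left out, the log2 values after MS023 ran from 1.54 to 2.50 at 15 min and from 3.46 to 4.42 at 3 h.

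Transcription of CIDEC went on rising between the 2 times, a comparison added after the values were seen. From 15 min to 3 h it rose by 1.29 on the log2 scale after GSK591 (SE 0.220, adjusted p = 2.31e-05, edgeR) and by 1.92 after MS023 (SE 0.232, adjusted p = 1.46e-08, edgeR).

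ANGPTL4 rose early and stayed up. Untreated libraries had 24.5 and 25.7 CPM, those with 15 min of Dex 96.6 and 97.4 CPM, and those with 3 h 83.4 and 82.3 CPM. At 15 min the log2 fold change was 1.95 (SE 0.119, adjusted p = 3.64e-17, edgeR). PDK4 had 4.34 and 5.54 CPM untreated, 13.0 and 13.6 CPM at 15 min and 18.9 and 18.2 CPM at 3 h, with a log2 fold change of 1.42 at 15 min (SE 0.189, adjusted p = 6.33e-07, edgeR). Of the 7 members tested at 15 min, CIDEC aside, these 2 passed, against 1.26% of all genes tested. The members were chosen with earlier results known, so nothing is read from this count. Neither PLIN3 (0.43, 95% interval -0.05 to 0.91, adjusted p = 0.761, edgeR) nor PLIN2 (0.31, -0.20 to 0.81, adjusted p = 0.909, edgeR) passed.

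At 3 h of Dex without inhibitor, the contrast behind the choice of the set, 10.5% of all genes were called. Of the 7 members beside CIDEC, 3 were among them, a count from which nothing is read. They were ANGPTL4 (log2 fold change 1.72, SE 0.120), PDK4 (1.90, SE 0.184) and PLIN3 (0.95, SE 0.232). PLIN3, a widely expressed perilipin that coats nascent droplets, had 4.45 and 4.03 CPM untreated and 8.40 and 7.94 CPM at 3 h. PLIN2, the perilipin of most non-fat cells, stood at 0.55 (SE 0.252), PNPLA2 at 0.32 (SE 0.122), CPT1A at 0.31 (SE 0.204) and PLIN4 at 0.01 (SE 0.181).

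The same 2 metabolic genes responded to Dex in both pretreated arms. After GSK591, ANGPTL4 went from 17.1 and 15.4 CPM to 85.0 and 67.0 CPM at 15 min and 69.9 and 78.2 CPM at 3 h. Its log2 fold changes were 2.22 (SE 0.128, adjusted p = 3.46e-18, edgeR) and 2.18 (SE 0.128, adjusted p = 3.09e-18, edgeR). After MS023 it went from 18.1 and 15.2 CPM to 52.4 and 59.3 CPM and then 62.5 and 70.2 CPM, a rise of 1.74 (SE 0.120, adjusted p = 1.00e-15, edgeR) and 1.99 (SE 0.120, adjusted p = 1.78e-18, edgeR). From 15 min to 3 h ANGPTL4 changed by -0.03 after GSK591 (95% interval -0.26 to 0.19, adjusted p = 0.889, edgeR) and by 0.25 after MS023 (0.03 to 0.47, adjusted p = 0.140, edgeR).

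PDK4 also rose in both arms. With GSK591 it stood at 5.23 and 6.43 CPM, then 18.9 and 14.7 CPM at 15 min of Dex and 22.2 and 24.1 CPM at 3 h. Its log2 fold changes were 1.52 (SE 0.188, adjusted p = 1.11e-07, edgeR) and 1.99 (SE 0.181, adjusted p = 3.76e-12, edgeR). With MS023 it stood at 6.44 and 6.15 CPM, then 13.5 and 18.9 CPM and 19.3 and 19.6 CPM, with log2 fold changes of 1.36 (SE 0.164, adjusted p = 4.83e-08, edgeR) and 1.63 (SE 0.160, adjusted p = 3.03e-11, edgeR).

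PLIN2 passed the test in 1 of the pretreated arms. After GSK591 it rose from 3.37 and 5.90 CPM to 12.1 and 11.7 CPM at 3 h (log2 fold change 1.38, SE 0.245, adjusted p = 4.36e-05, edgeR), and the value was 1.01 to 1.82 with each library left out. At 15 min it stood at 7.92 and 6.16 CPM (0.60, adjusted p = 0.282, edgeR). After MS023 it went from 6.37 and 5.79 CPM to 8.71 and 9.37 CPM at 3 h without overlap (0.57, 95% interval 0.14 to 1.00, adjusted p = 0.0763, edgeR). The difference between these 2 responses was 0.81 (95% interval 0.15 to 1.47, adjusted p = 0.557, edgeR), so that they were not shown to differ.

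In counts, 3 of 8 members rose at 15 min after GSK591, against 2.09% of genes called, and 4 of 8 at 3 h, against 9.85%. After MS023 there were 3 of 8 at 15 min, against 2.07%, and 3 of 8 at 3 h, against 11.1%. No member fell in these 4 comparisons. The members that rose were CIDEC, ANGPTL4 and PDK4 each time, joined by PLIN2 at 3 h after GSK591. CIDEC was chosen for its rise with Dex and the others with earlier results known, so nothing is read from these counts against the shares. The remaining members did not pass the threshold at 3 h: PLIN3 had 0.27 and 0.07 after GSK591 and MS023, PLIN4 -0.14 and -0.12, PNPLA2 0.31 and 0.31, and CPT1A 0.52 and 0.15. After GSK591 the 95% intervals lay above 0 for PNPLA2 (0.07 to 0.56) and CPT1A (0.07 to 0.96). They included 0 for PLIN3 (-0.19 to 0.72) and PLIN4 (-0.51 to 0.23). A missed threshold does not show that these genes were unchanged.

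**Figure D2:**
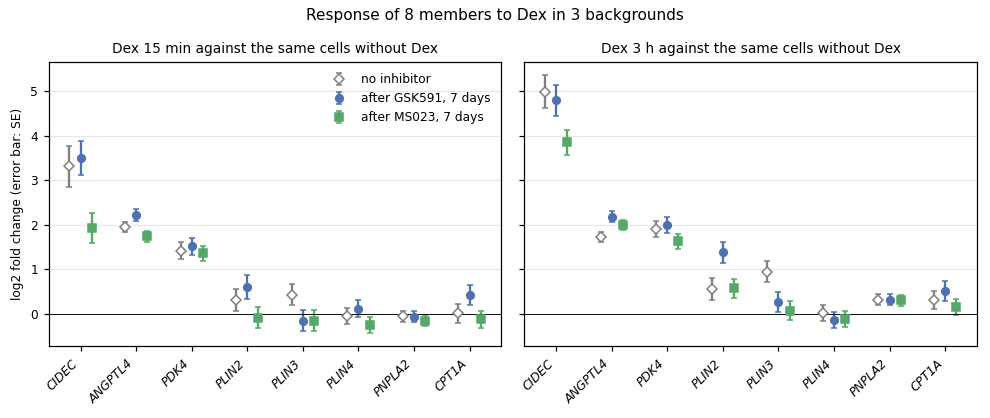
Log2 fold change with its SE (vertical) of 8 members (horizontal) after Dex for 15 min (left) and 3 h (right), without inhibitor (open diamonds, against untreated), after GSK591 (circles) or after MS023 (squares), each against the same cells without Dex. CIDEC, ANGPTL4 and PDK4 stand above 1 in every arm and at both times, and PLIN2 does so at 3 h after GSK591.

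The Dex response after GSK591 was set against that after MS023. At 3 h, 0 of 8 members passed by edgeR, against 0.0785% of genes, with 1 member (PLIN2) under an unadjusted p of 0.05 and 0 by DESeq2. For CIDEC the difference was 0.94 on the log2 scale (95% interval -0.20 to 2.08, adjusted p = 0.791, edgeR), for PDK4 0.36 (-0.13 to 0.86, adjusted p = 0.829, edgeR) and for ANGPTL4 0.19 (-0.16 to 0.54, adjusted p = 0.891, edgeR). At 15 min, a comparison added after the values were seen, again 0 of 8 members passed by edgeR, against 0% of genes called (1368 genes had an unadjusted p under 0.05), with 2 members under an unadjusted p of 0.05 and 0 by DESeq2. They were CIDEC (1.58, 95% interval 0.40 to 2.75, adjusted p = 0.740, edgeR) and ANGPTL4 (0.47, 0.12 to 0.83, adjusted p = 0.740, edgeR). These intervals include differences of several fold for CIDEC, so equal responses were not shown.

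Beside the response of CIDEC without inhibitor at 3 h, that after GSK591 was lower by 0.20 on the log2 scale and that after MS023 by 1.14, as descriptions. Left-out libraries moved the first between -0.90 and 0.42 and the second between -1.84 and -0.57.

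Adding an inhibitor together with Dex for 3 h left the members near the Dex levels. CIDEC had 10.1 and 12.5 CPM with GSK591 and 10.9 and 9.59 CPM with MS023, beside 11.7 and 12.6 CPM with Dex alone. PLIN2 had 8.17 and 10.5 CPM with GSK591 and 8.53 and 10.2 CPM with MS023, beside 6.38 and 7.94 CPM, with log2 differences of 0.39 (95% interval -0.07 to 0.85) and 0.39 (-0.07 to 0.86). Of the 7 members tested, 0 passed with GSK591 by edgeR, against 0% of genes (1306 had an unadjusted p under 0.05, and DESeq2 called 0), and 0 passed with MS023 against 0.196%. No member had an unadjusted p under 0.05 in either comparison, and DESeq2 called 0 members.

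With either inhibitor alone, ANGPTL4 lay below the untreated group at every time, and PDK4 lay above it at 2 and 4 days. Time in culture and days of inhibitor cannot be told apart in these comparisons. ANGPTL4 fell from 24.5 and 25.7 CPM in untreated cells to 14.2 and 15.1 CPM after 2 days of GSK591, 18.2 and 19.6 CPM after 4 days and 17.1 and 15.4 CPM after 7 days. Its log2 fold changes were -0.77 (adjusted p = 0.00024, edgeR), -0.41 (adjusted p = 0.0200, edgeR) and -0.62 (adjusted p = 0.000839, edgeR). With MS023 it had 14.8 and 13.4 CPM, 22.2 and 19.2 CPM, and 18.1 and 15.2 CPM, and fell by 0.83 at 2 days (adjusted p = 1.24e-05, edgeR) and 0.59 at 7 days (adjusted p = 0.000791, edgeR). At 4 days of MS023 the value was -0.28 (95% interval -0.53 to -0.03, adjusted p = 0.130, edgeR). All libraries with an inhibitor alone lay below both untreated ones, but the call at 4 days of GSK591 was lost in DESeq2 (adjusted p = 0.0722), with total nuclear counts as the scale (-0.35) and without any one of the 4 libraries compared. With that scale the call at 7 days of MS023 was lost as well (-0.38, adjusted p = 0.0535, edgeR).

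PDK4 rose up to 4 days and was lower again at 7 days. From 4.34 and 5.54 CPM it reached 8.74 and 8.85 CPM after 2 days of GSK591 (log2 fold change 0.82, SE 0.205, adjusted p = 0.00951, edgeR) and 14.5 and 15.5 CPM after 4 days (1.60, SE 0.186, adjusted p = 7.24e-09, edgeR). With MS023 it reached 13.6 and 13.8 CPM (1.47, SE 0.187, adjusted p = 1.56e-07, edgeR) and 15.5 and 16.9 CPM (1.71, SE 0.180, adjusted p = 5.72e-10, edgeR). The call at 2 days of GSK591 was lost without the first untreated library (0.67) or either GSK591 library (0.83 and 0.82). The levels at 4 days approached those of Dex for 3 h.

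At 7 days PDK4 had 5.23 and 6.43 CPM with GSK591 and 6.44 and 6.15 CPM with MS023. Its log2 fold changes against untreated cells were 0.23 (95% interval -0.22 to 0.67, adjusted p = 0.568, edgeR) and 0.34 (-0.06 to 0.75, adjusted p = 0.273, edgeR). The MS023 libraries still lay above both untreated ones (4.34 and 5.54 CPM), while those with GSK591 overlapped them. With total nuclear counts as the scale the MS023 value passed the threshold, so a full return was not shown. The fall from 4 to 7 days, a comparison added after the values were seen and one that uses no untreated library, was -1.37 on the log2 scale with GSK591 (SE 0.187, adjusted p = 1.10e-06, edgeR) and -1.36 with MS023 (SE 0.162, adjusted p = 3.50e-08, edgeR). PDK4 was the 1 member of 8 called in each, against 8.29% of genes with GSK591 and 9.04% with MS023.

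**Figure D3:**
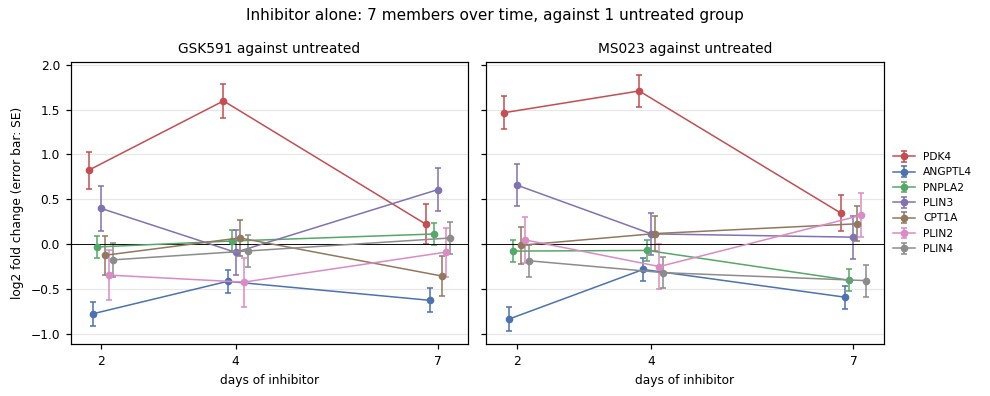
Log2 fold change against untreated cells with its SE (vertical) of 7 members at 2, 4 and 7 days (horizontal) of GSK591 (left) and MS023 (right), drawn from 1 untreated group. PDK4 peaks at 4 days (1.60 with GSK591, 1.71 with MS023) and is lower at 7 days (0.23, 0.34), while ANGPTL4 lies below 0 at every time.

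Of the other members tested against untreated cells, PNPLA2 passed at 1 of the inhibitor times. PNPLA2, the lipase that starts triglyceride breakdown, had 33.0 and 34.0 CPM in untreated cells and 25.6 and 25.2 CPM after 7 days of MS023, a log2 difference of -0.40 (SE 0.122, adjusted p = 0.0208, edgeR). This call was lost without any one of the 4 libraries compared, without the filter and in DESeq2 (adjusted p = 0.0833), and with total nuclear counts as the scale, which raised the median of all genes by 0.218 there, the value was -0.19. PLIN3 reached 0.66 at 2 days of MS023 (adjusted p = 0.0590, edgeR) and 0.61 at 7 days of GSK591 (adjusted p = 0.0898, edgeR). CIDEC, given as a description, had 2 and 5 counts in untreated cells. With GSK591 the counts were 2 and 1 on day 2, 6 and 15 on day 4, then 7 and 3 on day 7. With MS023 they were 2 and 1, then 11 and 3, then 16 and 8 on the same days. In CPM the groups at 4 days of GSK591 and 7 days of MS023 (1.13 and 0.579) lay above both untreated libraries, that at 2 days of MS023 (0.196 and 0.0923) lay below both, and the others overlapped them.

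Over the 7 members tested against untreated cells, 2 were called at 2 days of GSK591 (5.64% of genes), 2 at 4 days (17.2%) and 1 at 7 days (13.2%). With MS023 these were 2 at 2 days (10.4%), 1 at 4 days (14.2%) and 2 at 7 days (13.6%). The inhibitors were also compared with each other at 7 days, where 1 of 8 members was called, against 9.38% of genes. PNPLA2 was higher with GSK591 (35.6 and 37.0 CPM) than with MS023 (25.6 and 25.2 CPM), by 0.51 on the log2 scale (SE 0.123, adjusted p = 0.00354, edgeR). With total nuclear counts as the scale the value was 0.42 and the call was lost (adjusted p = 0.0510, edgeR). CPT1A, the gate of fatty acids into mitochondria, had 6.16 and 6.03 CPM with GSK591 and 8.71 and 9.55 CPM with MS023 (-0.58, SE 0.209, with a 95% interval ending at -0.16, adjusted p = 0.0681, edgeR). PLIN4 lay at 0.47 (0.11 to 0.84, adjusted p = 0.0886, edgeR) and CIDEC at -0.46 (-1.53 to 0.62, adjusted p = 0.688, edgeR).

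**Figure D4:**
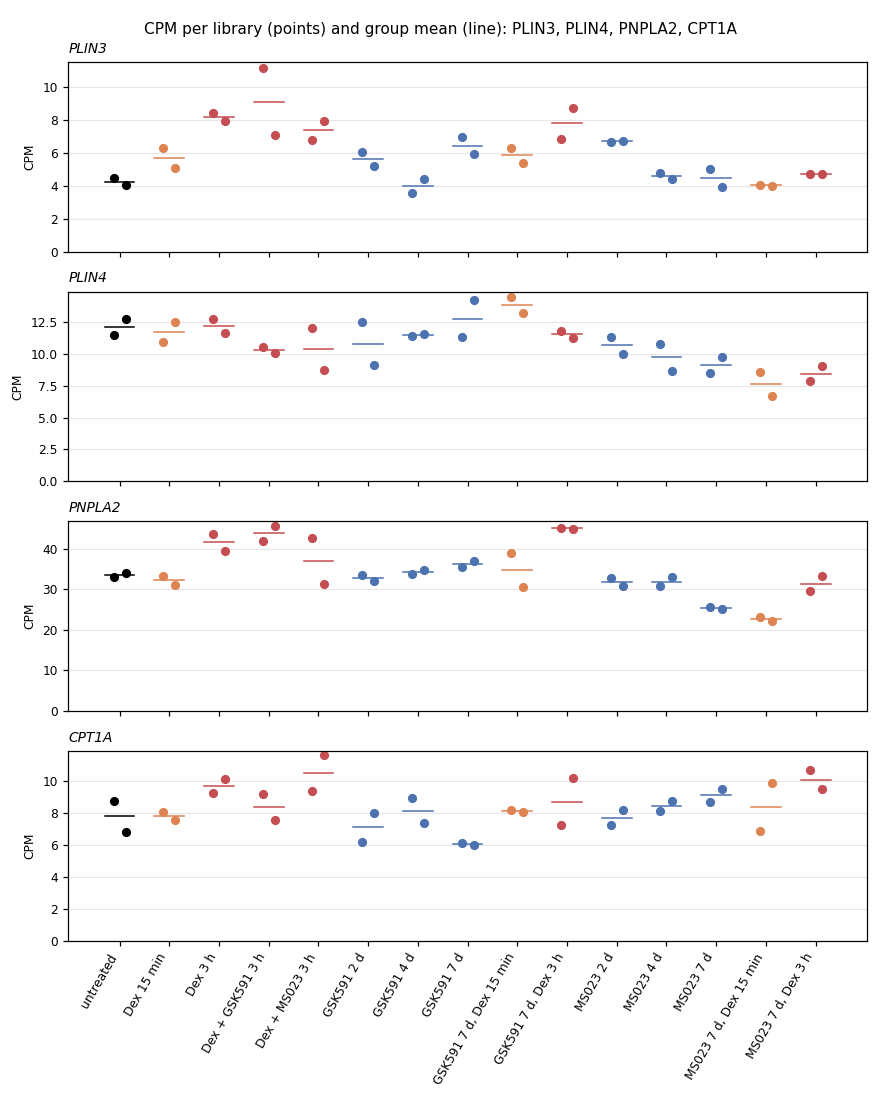
TMM-scaled CPM (vertical, from 0) of PLIN3, PLIN4, PNPLA2 and CPT1A in each library (points) and group mean (line) over the 15 groups (horizontal). PLIN4 keeps between 6.66 and 14.5 CPM throughout, and PNPLA2 lies lower in the MS023 7 day libraries (25.6 and 25.2 CPM) than in untreated ones (33.0 and 34.0 CPM).

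From 15 min to 3 h of Dex, 4 of 8 members rose after GSK591 (14.2% of genes called) and 3 of 8 after MS023 (12.9%), in comparisons added after the values were seen. Beside CIDEC, PLIN2 rose by 0.78 (adjusted p = 0.0146, edgeR) and 0.65 (adjusted p = 0.0365, edgeR), and PNPLA2 by 0.38 (adjusted p = 0.0271, edgeR) and 0.46 (adjusted p = 0.00667, edgeR). PDK4 rose by 0.47 after GSK591 (adjusted p = 0.0298, edgeR) and had 0.27 after MS023 (adjusted p = 0.251, edgeR). Apart from CIDEC these calls were sensitive: without the second 15 min library or either 3 h library after GSK591, CIDEC was the 1 member left there, and PLIN2 lost its call after MS023 without any one of the 4 libraries.

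The authors' deposited tables, which compare 14 treatments with untreated cells and come from another counting, give further values for the members. ANGPTL4 falls further with the inhibitors in the authors' deposited tables than in the count table, with -1.45, -1.72 and -1.36 on the log2 scale over the GSK591 times and -1.87, -1.35 and -1.32 over those of MS023. PDK4 has 0.81, 1.62 and 0.26 with GSK591 and 1.55, 1.86 and 0.21 with MS023 in the authors' deposited tables, close to the values from the counts. For PNPLA2 the 2 sources point in opposite directions at 7 days of MS023: the authors' deposited table has 0.28 (adjusted p = 0.0512) where the counts give -0.40, and at 7 days of GSK591 it has 0.61 (adjusted p = 9.41e-06). At 2 and 4 days of MS023 the authors' deposited tables have 0.50 (adjusted p = 0.000284) and 0.47 (adjusted p = 0.000492) for PNPLA2, where the counts give -0.08 and -0.07, not past the threshold. PLIN3 at 7 days of MS023 is -0.41 (adjusted p = 0.0461) in the authors' deposited table and 0.08 in the counts, again not past the threshold. PLIN2 has 1.81 at 3 h of Dex after GSK591 and 1.08 after MS023, both against untreated cells, in the authors' deposited tables. For 3 h of Dex without inhibitor PLIN2 has 1.21 there, where the counts give 0.55. With an inhibitor added together with Dex it has 1.19 (GSK591) and 1.16 (MS023) there, again against untreated cells.

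CIDEC has 5.61 at 3 h of Dex, 6.08 after GSK591 and 5.40 after MS023 in the authors' deposited tables, as descriptions. All of these are against untreated cells, so the values after an inhibitor are not Dex responses against the inhibitor alone. Mean levels also differ between the sources. PLIN4 averages 110.3 counts in the count table and a mean of 4.76 in the authors' deposited tables, CPT1A 88.8 and 534.8, and CIDEB 0 and 0.275, so that a level from 1 source cannot be set against the other.

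**Figure D5:**
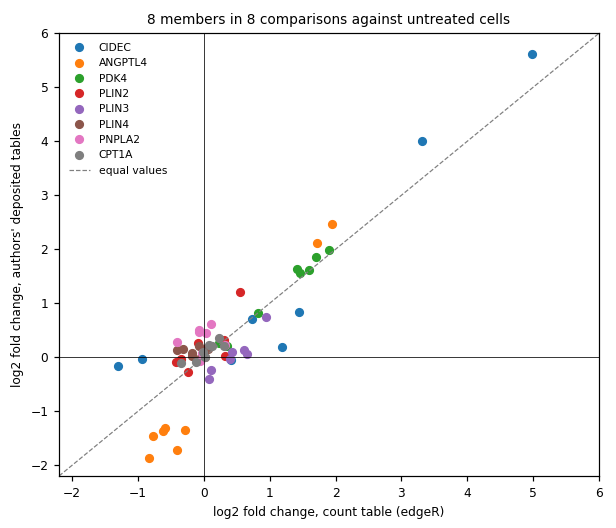
Log2 fold change of 8 members in 8 comparisons with untreated cells from the count table (horizontal, edgeR) and from the authors' deposited tables (vertical), with the line of equal values. PDK4 lies near the line, CIDEC after Dex lies above it (3.31 from the counts against 4.01, and 4.99 against 5.61), the 6 ANGPTL4 points of the inhibitors lie below it, and PNPLA2 has opposite signs at all 3 times of MS023.

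Other genes of the pathways were read from 3 lists that exclude the members. In the list of lipid droplet and triglyceride genes (26 of 29 tested), 4 rose and 1 fell after 3 h of Dex in cells with GSK591, beside 9.85% of all genes called, with a median log2 fold change of 0.09 against 0.00 over all genes. With MS023 likewise 4 rose and 1 fell, beside 11.1% of all genes (median 0.19 against 0.00). METTL7A, a droplet-associated methyltransferase-like protein, rose by 1.92 and 2.45 (SE 0.502 and 0.564, adjusted p = 0.00779 and 0.00183, edgeR). Its mean level was low, at 1.21 CPM. G0S2, an inhibitor of the lipase encoded by PNPLA2, had a mean of 3.97 CPM and rose by 0.76 and 0.85 (adjusted p = 0.0492 and 0.0415, edgeR). LPIN1, a phosphatidate phosphatase of triglyceride synthesis, fell by 0.86 and 0.90 on the log2 scale (adjusted p = 0.000658 and 8.47e-05, edgeR). LPIN3 was among the 3 largest called rises with GSK591 (0.89, adjusted p = 0.000878, edgeR). HILPDA, another inhibitor of that lipase, was among those with MS023 (1.09, adjusted p = 7.33e-10, edgeR). Only these largest rises are named, so neither gene is said to lack a call in the other arm. HILPDA had 30.5 and 29.5 CPM with MS023 alone and 63.8 and 64.5 CPM with Dex.

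Among fatty acid oxidation and fuel choice genes (27 of 29 tested), 3 rose and 1 fell with GSK591 (9.85% of all genes called, median 0.06 against 0.00) and 4 rose with MS023 (11.1% of all genes, median 0.04 against 0.00). ACSL1, which activates long-chain fatty acids, rose by 1.47 and 0.94 (adjusted p = 7.67e-07 and 0.000175, edgeR), and DECR1, an enzyme for unsaturated fatty acids, by 1.19 and 1.20 (adjusted p = 0.0264 and 0.00262, edgeR). Of 10 tested genes for lipid receptors and handling, 2 rose after GSK591, and 2 rose and 1 fell after MS023, beside the same shares of all genes (medians 0.04 and 0.02). The coactivator PPARGC1B rose by 1.47 and 1.40 (adjusted p = 2.34e-08 and 5.82e-09, edgeR) and the receptor PPARA by 0.67 and 0.71 (adjusted p = 0.0119 and 0.00145, edgeR), while FABP5, a fatty acid carrier, fell by 0.81 with MS023 (adjusted p = 0.000229, edgeR).

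At 7 days of inhibitor alone, with 13.2% of all genes called for GSK591 and 13.6% for MS023, 2 of 26 lipid droplet genes rose with GSK591, and 1 rose and 2 fell with MS023. Of 27 oxidation and fuel choice genes 1 rose and 1 fell with GSK591, and 2 rose and 2 fell with MS023. Of 10 genes for lipid receptors and handling 1 rose and 1 fell with GSK591, and 3 rose and 1 fell with MS023. G0S2 (1.67, adjusted p = 0.000204, edgeR) and PLIN1, the perilipin of adipocytes (0.94, adjusted p = 0.0246, edgeR), rose with GSK591. PDK2, a relative of PDK4, rose by 1.11 with GSK591 (adjusted p = 5.89e-06, edgeR) and fell by 0.56 with MS023 (adjusted p = 0.0350, edgeR), each against the same untreated cells. PPARGC1B fell by 0.58 and 0.74 on the log2 scale (adjusted p = 0.0380 and 0.00316, edgeR) and PPARA rose by 0.69 and 0.84 (adjusted p = 0.0191 and 0.00159, edgeR).

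Over the 15 group means of log2 CPM, the genes most like CIDEC among 18485 were AKAP13 (Pearson's r 0.968), FGD4 (0.961), SLC25A16 (0.960), EPB41L4A-DT (0.958) and ADAMTSL4-AS1 (0.949), as a description over groups that share the Dex treatment. Of the members, ANGPTL4 ranked 26 (0.927), PLIN2 96 (0.881) and PDK4 641 (0.718), and PLIN4 had -0.03. FGD4 averaged 6.39 CPM in untreated cells and 43.5 CPM after 3 h of Dex, and AKAP13 51.2 and 122.3 CPM.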

How the data were processed

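PRO-seq was read from 30 libraries, placed in 15 groups by their labels. Counts per gene in the deposited table are whole numbers made with featureCounts 2.0.1 on hg38, per the submitters' processing notes; the aligner, the feature type and the use of strand are not given in the sources used here. In the authors' deposited tables the baseMean is a mean signal of normalised counts, per the file headers. The log2 fold changes, p-values and adjusted p-values printed from them are those the authors deposited.

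Counts were fitted with edgeR 4.0.16 (R 4.3.3, limma 3.58.1): TMM scaling, filterByExpr (minimum count 10, minimum total 15, 22919 genes kept), a robust quasi-likelihood fit of all 15 groups with 15 residual degrees of freedom, and Benjamini-Hochberg adjustment over all genes tested with a threshold of 0.05. Intervals cover 95%. CPM are TMM-scaled. With 2 against 2 samples an exact two-sided permutation test cannot go below 0.333, so the fit borrows the spread of all groups. The procedure was tested on simulated data in which all genes shared the same spread. Such data do not speak to genes with a spread of their own, and nothing is drawn from them here. No 2 libraries were identical in 435 pairs.

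Gene positions and exons are from GENCODE 29, promoters from RefSeq (GRCh38.p14; all 10 members matched). The members and lists were chosen with earlier results of these data known. Named genes are the members, the 5 genes most correlated with CIDEC (mean of at least 1 CPM), and the 3 largest called rises and falls per list in 4 comparisons. The TATA box search was added after the values were seen. Alternatives were DESeq2 1.42.0, its size factors, nuclear totals as the scale, no filter (53080 genes), no mitochondrial or ribosomal RNA genes (22812 genes), the compared groups alone, a replicate block and each library left out.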

Additional observations from a re-analysis of the deposited data

How the results depend on the processing

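Of 35 tested member changes past the threshold, 25 kept the call under every alternative run, among them the 13 called Dex responses in pretreated cells at 15 min and 3 h, and 10 lost it under 1 or more. None of the 35 changed sign. Of 116 that did not pass, 10 passed under 1 or more alternatives and 45 changed sign under 1 or more. How many were in both counts was not determined. The cause was not tested for any of these.

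With nuclear totals as the scale, the members called became 1 at 4 days of GSK591 and 1 at 7 days of MS023 (from 2 each; at the former ANGPTL4 lost the call, and at the latter time PDK4 passed, at 0.56, while ANGPTL4 and PNPLA2 lost the call), 2 at 7 days of GSK591 (from 1, PLIN3 joining at 0.72) and 2 from 4 to 7 days of GSK591 (from 1). DESeq2 gave 1 at 4 days of GSK591, 1 at 7 days of MS023 and 1 from 15 min to 3 h after GSK591 (from 4). Over all genes DESeq2 also called fewer there, with 2462, 1813 and 2021 genes where edgeR called 3941, 3127 and 3259. These lower member counts are therefore not read as particular to the members. No filter gave 1 at 7 days of MS023. Shares of all genes under the other alternatives are not given here. Fitting the compared groups alone gave 2 for GSK591 against MS023 at 7 days, 2 from 15 min to 3 h after GSK591, and 2 from 4 to 7 days with either inhibitor. Leaving out each library gave 1 to 2 at 2 days of GSK591, 1 to 1 at 4 days, 1 to 1 at 7 days of MS023, 0 to 1 for Dex with MS023 against Dex, 1 to 4 and 1 to 2 from 15 min to 3 h after GSK591 and MS023, and 1 to 2 from 4 to 7 days of MS023. The log2 fold change of CIDEC then ran from 4.56 to 5.69 for Dex at 3 h against untreated, from -0.90 to 0.42 for its difference with GSK591, from -1.84 to -0.57 for that with MS023, and from -1.07 to 0.11 for GSK591 against MS023 at 7 days. Signs also changed for ANGPTL4 from 15 min to 3 h after GSK591 (-0.20 to 0.14, and 0.029 with nuclear totals), PLIN4 at 3 h of Dex after GSK591 (-0.30 to 0.031), PLIN3 after MS023 (-0.091 to 0.27), PLIN3 at 7 days of MS023 alone (-0.12 to 0.25) and PNPLA2 at 4 days of MS023 (0.11 with nuclear totals).

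The replicate numbers showed no pairing common to all groups. Deviations of same-numbered libraries correlated above 0.1 in 22 of 105 pairs of groups and below -0.1 in 13. The median was 0.02 and the range -0.451 to 0.487, and whether some of the groups were paired was not tested. With a replicate block the count of members called stayed at 2 for Dex at 15 min and at 4 and 3 for Dex at 3 h after GSK591 and MS023, and changed in none of the comparisons. A library left out leaves 1 in its group, which is assumed to vary like the others. At 2 to 16 counts without Dex, depth limits the size of the CIDEC response.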
